A study of Mus musculus with 8 samples.

Results

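The unfolded protein and integrated stress responses are followed here through 10 genes: Hspa5, Ero1a, Os9, Xbp1, Atf6, Atf4, Ddit3, Trib3, Asns and Ppp1r15a. A peak of open chromatin was assigned to a gene when it lay within 10 kb of the RefSeq gene body on GRCm38, the assembly also called mm10. Overlapping peaks of the 8 libraries (at least 1 bp) were merged into 40784 regions, and 29 of these belonged to the 10 genes. The 29 regions include 9 at the members' own promoters, 1 for every gene but Atf6. Atf6 had no start site among the promoter sequences used, so a peak at its promoter was not assessed.

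The libraries are ATAC-seq of BV2 cells, an immortalised mouse microglial line. ATAC-seq uses the Tn5 transposase to cut and tag accessible DNA, so a peak marks a stretch that was cut more often than its surroundings. The BV2 cells were cultured by themselves (monoculture) or together with GL261 mouse glioma cells (co-culture), and were then kept for 16 h at 21% oxygen (normoxia) or below 0.1% oxygen (hypoxia). Each of the 4 combinations had 2 biological replicates. The cells were fixed with formaldehyde and then sorted on CD45 or GFP, so the co-culture libraries depend on the sort to leave the glioma cells behind. Every group comes from 1 cell line in a dish, and in such bulk libraries a site open in more cells and a site more open in each cell cannot be told apart.

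The endoplasmic reticulum folds secreted and membrane proteins, and its unfolded protein response is read out by the sensors IRE1 (which splices Xbp1 messenger RNA), ATF6 (which is cut and moves to the nucleus) and PERK. PERK and the related kinases that sense haem, viral RNA and amino acid shortage phosphorylate the initiation factor eIF2α, which slows translation in general but favours translation of ATF4, the core of the integrated stress response. Severe hypoxia is a known activator of PERK.

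The promoters below are shown because the comparisons turn on them: by −log10 p, Hspa5, Atf4, Ddit3 and Os9 ranked highest in hypoxic co-culture, an order that only Os9 of the 4 kept by fold, while Asns did not rank highest there. Each runs 5′ to 3′ on the gene's own strand from 250 bases before the RefSeq start to 50 bases after it (GRCm38.p6). Capitals mark matches to 3 short motifs, searched on both strands: ERSE, the endoplasmic reticulum stress element (CCAAT, 9 bases of any kind, CCACG); the C/EBP-ATF composite site TGATGNAA, which ATF4 and CHOP dimers are known to bind; and the hypoxia response element core ACGTG. The windows are chr2:34771840-34772139 (plus strand) for Hspa5, chr15:80254934-80255233 (plus) for Atf4, chr10:127290543-127290842 (plus) for Ddit3, chr10:127121111-127121410 (minus) for Os9 and chr6:7693160-7693459 (minus) for Asns.
Hspa5: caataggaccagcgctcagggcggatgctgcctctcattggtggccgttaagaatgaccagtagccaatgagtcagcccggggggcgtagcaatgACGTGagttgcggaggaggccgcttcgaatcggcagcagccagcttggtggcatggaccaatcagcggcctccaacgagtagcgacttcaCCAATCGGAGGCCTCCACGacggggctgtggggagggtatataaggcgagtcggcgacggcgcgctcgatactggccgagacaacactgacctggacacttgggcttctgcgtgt
Atf4: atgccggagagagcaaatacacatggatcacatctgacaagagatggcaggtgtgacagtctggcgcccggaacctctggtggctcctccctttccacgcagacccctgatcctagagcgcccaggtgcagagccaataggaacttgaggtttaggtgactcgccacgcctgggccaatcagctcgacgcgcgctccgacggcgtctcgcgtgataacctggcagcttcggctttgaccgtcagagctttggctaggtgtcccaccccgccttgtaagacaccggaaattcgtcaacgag
Ddit3: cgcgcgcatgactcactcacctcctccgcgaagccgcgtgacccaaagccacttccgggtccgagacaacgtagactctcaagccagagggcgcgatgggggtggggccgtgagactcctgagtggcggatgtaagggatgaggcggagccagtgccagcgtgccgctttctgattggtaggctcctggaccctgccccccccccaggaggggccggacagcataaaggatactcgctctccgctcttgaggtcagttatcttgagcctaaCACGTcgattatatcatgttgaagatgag
Os9: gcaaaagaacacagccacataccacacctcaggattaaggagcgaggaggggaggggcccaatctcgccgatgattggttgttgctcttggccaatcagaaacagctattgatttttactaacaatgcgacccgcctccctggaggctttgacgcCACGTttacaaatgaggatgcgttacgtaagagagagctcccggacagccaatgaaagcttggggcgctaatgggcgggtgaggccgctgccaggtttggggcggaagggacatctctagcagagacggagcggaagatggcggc
Asns: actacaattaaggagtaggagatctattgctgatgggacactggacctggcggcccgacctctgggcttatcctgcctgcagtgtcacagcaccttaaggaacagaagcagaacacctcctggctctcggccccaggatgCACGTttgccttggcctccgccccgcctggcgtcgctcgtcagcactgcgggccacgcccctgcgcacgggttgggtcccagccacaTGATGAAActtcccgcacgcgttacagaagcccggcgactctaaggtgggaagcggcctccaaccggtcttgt

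Of the 9 member promoters, 1 had an ERSE match, that of Hspa5: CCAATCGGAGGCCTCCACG, whose first base lies 65 bp upstream of the start. ERSE matches were rare, in 0.119% of 32851 promoters and in 0.123% of the 11415 promoters with a peak in any library. The composite site matched in Asns (TGATGAAA, first base 23 bp upstream) and Trib3 (TTACATCA, 14 to 21 bp past the start, on the opposite strand), against 3.97% of all promoters and 2.33% of those with a peak. The hypoxia core is 5 letters long and common, in 19.6% of all promoters and 27.3% of those with a peak. It matched in 6 of the 9 member promoters (Ero1a, Hspa5, Ddit3, Asns, Os9 and Ppp1r15a, the last with 2 matches). A second stress element, ERSE-II (ATTGG, 1 base of any kind, CCACG), and the ATF6 and XBP1 core TGACGTGG matched in none of the 9, against 0.0365% and 0.676% of all promoters. No match overlapped another, and a match is a string of letters, not a measured binding site.

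The lists differ in length, from 9910 to 29658 peaks, with both normoxic monoculture libraries shortest (13333 and 9910 peaks) and the other 6 between 21633 and 29658. The files carry no library totals. For each peak the number of fragments at its summit was solved from the deposited fold and −log10 p, and the median over regions at promoters ran from 21 and 25 fragments in normoxic monoculture to 42 and 42 in hypoxic co-culture. Whether a site is called moves with these numbers, whose part in the presence counts was not tested, and ranks from lists of unequal length show no change by themselves. Of 12 microglial markers, Ptprc (which encodes CD45), Csf1r, Aif1, Cx3cr1 and P2ry12 had a peak in every library. The rest ranged from 3 libraries (Itgam and Tmem119) to 7 (Cd68 and Fcer1g). Microglial markers with a peak numbered 8 and 6 in normoxic monoculture and 10 and 10 in hypoxic monoculture. In co-culture they numbered 11 and 12 in normoxia and 11 and 9 in hypoxia. Of 12 glioma and glial markers, 1, 1, 1 and 3 had a peak in the 4 monoculture libraries and 6, 3, 8 and 6 in the 4 co-culture libraries, with Sox2 called in 3 co-culture libraries and Olig2, Egfr and Fabp7 in none. Slc1a3, of the glioma and glial list, was called in 7 libraries, and S100b in the 4 hypoxic ones. The glioma and glial counts moved with culture, and the microglial counts were lowest in normoxic monoculture. The part of these marker counts in the co-culture results was not tested.

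**Figure D1:**
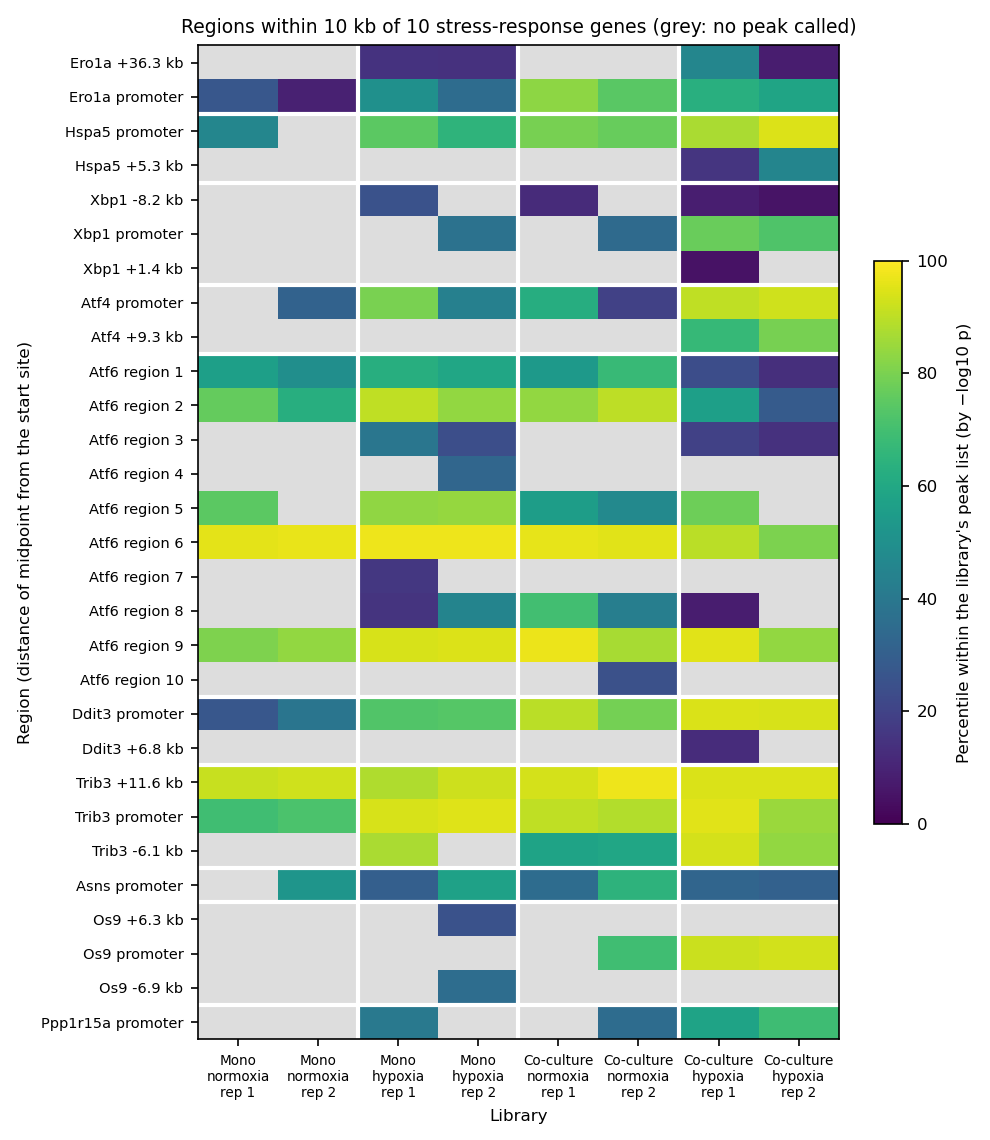
Within-list percentile of the −log10 p of each of the 29 member regions (rows) in each of the 8 libraries (columns), where 100 is the strongest peak of a list and grey marks no peak. The 9 promoters are all called in the 2 hypoxic co-culture columns, and Atf6 region 6 is at its lowest there, 89.5 and 80.3.

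More member sites were called outside normoxic monoculture, as were more regions of all kinds. A region's percentile gives where its strongest peak, judged by −log10 p, stands in that library's list, from 0 for the weakest peak to 100 for the strongest. A peak was called at 10 and 10 of the 29 regions in the 2 normoxic monoculture libraries, 19 and 19 in hypoxic monoculture, 15 and 18 in normoxic co-culture and 24 and 20 in hypoxic co-culture. Of all 40784 regions, 12572 and 9433, 23349 and 25395, 21071 and 20995, and 28837 and 20990 were called in the same groups. Of the 9 own promoters, 4 and 5 were called in normoxic monoculture, 7 and 7 in hypoxic monoculture, 6 and 9 in normoxic co-culture, and 9 and 9 in hypoxic co-culture. Over all protein-coding genes the share of promoters with a peak was likewise lowest in normoxic monoculture, at 27.5% and 22.7%, against 36.9% to 44.4% in the other 6 libraries. When every list was cut to its 9910 strongest peaks, these counts became 4 and 5, 4 and 3, 5 and 6, and 6 and 8. The share of all protein-coding promoters called in the cut lists was 23.1% and 22.7%, 19.6% and 17.8%, 25.3% and 28.6%, and 24.6% and 29.7% in the same groups. In the equal-number lists the monoculture groups overlapped, and both hypoxic co-culture libraries had counts at least as high as every other library.

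Among the genes of the folding machinery, Hspa5 encodes BiP, the main chaperone of the endoplasmic reticulum and the protein that holds the stress sensors inactive. Its promoter region (chr2:34771563-34772331) was at percentile 45.9 in the first normoxic monoculture library and had no peak in the second, at 74.7 and 64.9 in hypoxic monoculture, at 79.4 and 76.9 in normoxic co-culture and at 87.4 and 94.9 in hypoxic co-culture. Both hypoxic co-culture libraries were above the other 6 in these ranks. Ranked by fold over local background, they stood at 42.7 and 72.0, below normoxic co-culture at 78.4 and 75.9, and the first was the lowest of the 7 libraries with a peak. The summit held 15 fragments in the normoxic monoculture library with a peak, 46 and 41 in hypoxic monoculture, 40 and 45 in normoxic co-culture and 95 and 126 in hypoxic co-culture. The local background, the fragment number the peak caller expected at the summit, also differed, at 1.26 in that normoxic monoculture library, 4.87 to 5.19 in hypoxic monoculture, 3.71 to 4.33 in normoxic co-culture and 13.0 to 13.1 in hypoxic co-culture. Summits lay 105 to 202 bp upstream of the start, so the ERSE match lies between the summits and the start. A further region 5.3 kb past the start, inside the neighbouring gene Rabepk (chr2:34776952-34777912), had a peak in both hypoxic co-culture libraries only, at percentiles 15.3 and 45.7 with 35 and 46 fragments.

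Os9 encodes a lectin that carries misfolded glycoproteins to degradation. Its promoter (chr10:127121078-127121596) had no peak in any monoculture library or in the first normoxic co-culture library, was at percentile 69.5 in the second, and was at 91.9 and 93.3 in hypoxic co-culture. The corresponding fragments were 39 in normoxic co-culture and 81 and 91 in hypoxic co-culture. This was the 1 member promoter absent from all 4 monoculture lists. Single-library peaks lay 6.3 kb past the start and 6.9 kb before it, both in the second hypoxic monoculture library. Os9 and Ddit3 lie on the same stretch of chromosome 10, with 169.632 kb between their gene bodies.

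Ero1a encodes the oxidase that makes disulfide bonds with oxygen as the final electron acceptor, and it is a known hypoxia-induced gene. Its promoter (chr14:45318220-45319120) was called in all 8 libraries, at percentiles 27.3 and 9.01 in normoxic monoculture, 50.3 and 35.3 in hypoxic monoculture, 82.9 and 74.5 in normoxic co-culture and 63.0 and 58.5 in hypoxic co-culture. All 4 co-culture libraries were above all 4 monoculture libraries, and within co-culture both hypoxic libraries were below both normoxic ones. Ranked by fold the separation by culture ended, with hypoxic co-culture at percentiles 12.8 and 16.6 and the first normoxic monoculture library at 23.9. A second region, 36.3 kb past the start beyond the gene's end and inside Gpr137c (chr14:45281587-45283035), was called in each of the 4 hypoxic libraries but in none at normoxia, at percentiles 14.6 and 14.2 in monoculture and 45.7 and 8.19 in co-culture. These were weak peaks of 25 and 23 and of 55 and 21 fragments, and the region was in none of the 8 equal-number lists.

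Among the sensors and transcription factors, Xbp1, which drives chaperone and degradation genes once IRE1 has spliced its messenger RNA, had a promoter peak (chr11:5520534-5521193) in 4 libraries. Percentiles were 37.8 in the second hypoxic monoculture library, 34.7 in the second normoxic co-culture library, and 77.2 and 72.4 in hypoxic co-culture, with 22, 18, 52 and 47 fragments. Neither normoxic monoculture list held it. The Xbp1 summits lay 228 to 255 bp past the start, the 1 member promoter of the 9 whose summits were all downstream. A region 8.2 kb upstream was called in 4 libraries between percentiles 5.24 and 25.2, and a region 1.4 kb past the start in the first hypoxic co-culture library only, at 5.01.

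Atf4 encodes the factor that is translated when eIF2α is phosphorylated and that activates amino acid and redox genes. Its promoter (chr15:80254417-80256010) had no peak in the first normoxic monoculture library and was at percentile 31.3 in the second, at 79.7 and 43.7 in hypoxic monoculture, at 62.1 and 19.3 in normoxic co-culture and at 90.2 and 92.9 in hypoxic co-culture. The spread between replicates was wide in hypoxic monoculture and normoxic co-culture, and these groups overlapped, while the hypoxic co-culture libraries stood above all 6 others. Fragments were 19 in the second normoxic monoculture library, 44 and 27 in hypoxic monoculture, 35 and 25 in normoxic co-culture, and 84 and 104 in hypoxic co-culture. A region 9.3 kb past the start, at the promoter of Rps19bp1 (chr15:80264214-80264686), was called in both hypoxic co-culture libraries and no other, at percentiles 67.0 and 79.3.

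Atf6, the membrane-bound sensor, had 10 regions on chromosome 1, numbered here in chromosome order, of which 9 overlapped its gene body. Region 6 (chr1:170795638-170796408) was called in all 8 libraries, at percentiles 95.7 and 96.7 in normoxic monoculture, 97.4 and 97.4 in hypoxic monoculture, 96.5 and 95.7 in normoxic co-culture, and 89.5 and 80.3 in hypoxic co-culture. It held 81 and 61 fragments in hypoxic co-culture, against 55 and 66 in normoxic monoculture, 112 and 124 in hypoxic monoculture and 86 and 103 in normoxic co-culture. By fragments hypoxic co-culture thus overlapped normoxic monoculture, where the median promoter region held 21 and 25, against 42 in both hypoxic co-culture libraries. Region 2 (chr1:170709197-170710073) was, in the same group order, at 76.5 and 62.6, 90.5 and 83.6, 83.8 and 90.2, and 56.5 and 28.7. Region 1 (chr1:170702212-170703226), outside the gene body, was at 56.4 and 49.6, 62.9 and 59.1, 54.0 and 67.6, and 23.7 and 13.7. In these 3 regions, of the 8 member regions called in every library, both hypoxic co-culture libraries ranked below the other 6, against 9.62% of the 6375 regions called in every library. Ranked by fold over local background the same 3 kept this order, against 5.65%. This pattern was chosen after its values were seen. Region 9 (chr1:170853413-170854368) showed no such separation, with percentiles from 80.7 to 97.1 over the 8 libraries. Region 3 (chr1:170732237-170732992) was called in all 4 hypoxic libraries and no normoxic one, at 39.3 and 23.8 in monoculture and 19.3 and 14.4 in co-culture, and was in none of the 8 equal-number lists. Region 5 (chr1:170766940-170767641) was called in 6 libraries between 47.0 and 84.1, and region 8 (chr1:170845761-170846402) in 5 between 8.20 and 69.7. Regions 4, 7 and 10 were each called in 1 library. Region 4 was called in the second hypoxic monoculture library at 33.0, and region 7 in the first at 16.1. Region 10 (chr1:170867753-170868063) was called in the second normoxic co-culture library at 24.7. It overlaps both the Gm9929 promoter and the Atf6 body, which ends at 170868585. Whether it marks the Atf6 promoter was not assessed.

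Ddit3 encodes CHOP, the factor that ATF4 induces under prolonged stress. Its promoter region (chr10:127288804-127291168), which also covers the promoter of Mbd6, was called in all 8 libraries. Percentiles were 27.2 and 38.8 in normoxic monoculture, 72.9 and 73.7 in hypoxic monoculture, 89.7 and 79.1 in normoxic co-culture, and 94.2 and 94.1 in hypoxic co-culture. The 4 groups did not overlap and stood in that order. The summit held 20 and 23, 56 and 60, 78 and 72, and 136 and 144 fragments, and the local background was 3.79 to 4.32, 8.67 to 9.04, 10.8 to 11.9 and 17.6 to 19.8 fragments in the same groups. A peak here cannot be assigned to Ddit3 rather than Mbd6. A weak peak 6.8 kb past the start, in Mars1, was in the first hypoxic co-culture library only, at 12.6.

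Among the targets of ATF4 and CHOP, Ppp1r15a encodes GADD34, which directs the phosphatase that removes the eIF2α phosphate. Its promoter region (chr7:45526180-45526582, also the promoter of Plekha4) was called at percentile 40.3 in the first hypoxic monoculture library, 35.3 in the second normoxic co-culture library, and 57.9 and 68.8 in hypoxic co-culture, with 26, 19, 43 and 47 fragments. It had no peak in normoxic monoculture. Trib3 encodes a pseudokinase that restrains ATF4 and AKT signalling, and its promoter (chr2:152343490-152344649) was open in every library, at percentiles 69.2 and 71.6 in normoxic monoculture, 93.9 and 95.2 in hypoxic monoculture, 90.5 and 88.4 in normoxic co-culture and 95.6 and 85.1 in hypoxic co-culture. Both normoxic monoculture libraries were below the other 6, which overlapped. A region 11.6 kb past the Trib3 start, at the Rbck1 promoter (chr2:152331944-152333037), was between 87.9 and 97.5 in all 8. A further region, 6.1 kb upstream in Gm14164, was called in 5 libraries between 58.0 and 93.6, and in neither normoxic monoculture library.

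Asns encodes asparagine synthetase, an amino acid enzyme and a known ATF4 target, and its printed promoter holds the composite site. Its promoter (chr6:7692179-7693512) was not called in the first normoxic monoculture library and stood at percentile 52.3 in the second, at 30.3 and 57.3 in hypoxic monoculture, 35.2 and 64.5 in normoxic co-culture and 32.6 and 30.9 in hypoxic co-culture. Both hypoxic co-culture libraries were below both normoxic co-culture libraries and within the span of hypoxic monoculture. Ranked by fold the co-culture groups overlapped, with hypoxic co-culture at percentiles 36.0 and 35.4 and normoxic co-culture at 30.6 and 64.6. Fragments at the summit were 20 in the second normoxic monoculture library, 21 and 33 in hypoxic monoculture, 21 and 34 in normoxic co-culture, and 22 and 19 in hypoxic co-culture.

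**Figure D2:**
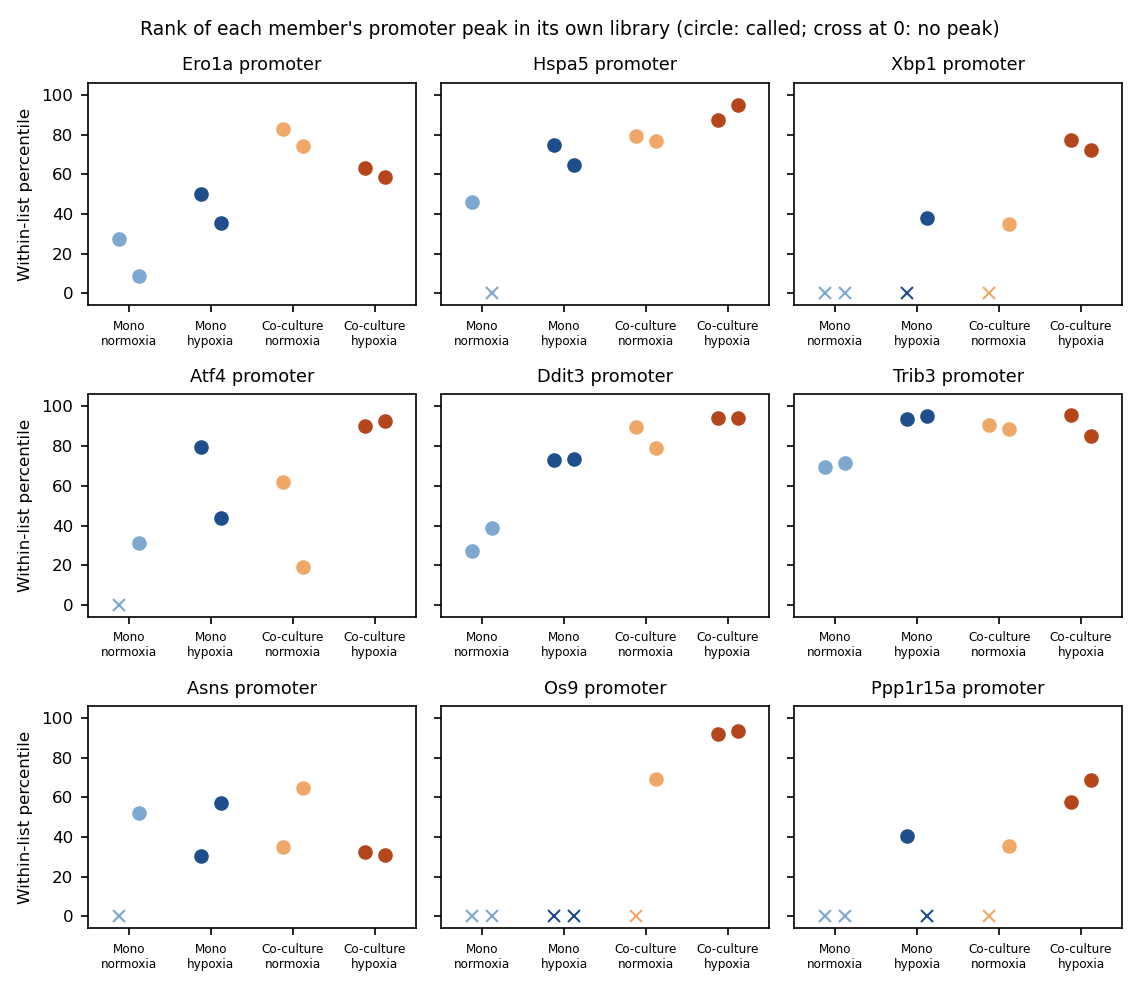
Within-list percentile (vertical axis) of the 9 member promoters by group (horizontal axis), with 1 circle for each library with a peak, a cross at 0 for each library without, and 2 libraries per group. Hspa5, Xbp1, Atf4, Ddit3, Os9 and Ppp1r15a have both hypoxic co-culture points above all others, while the called Asns points span percentiles 30.3 to 64.5, with hypoxic co-culture at 32.6 and 30.9.

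At 6 of the 9 promoters both hypoxic co-culture libraries ranked above each of the other 6, a library without a peak counting as lowest. These were Hspa5, Xbp1, Atf4, Ddit3, Os9 and Ppp1r15a. Over all 8451 regions at promoters the share was 28.9%, and the median promoter region also held the most fragments in these 2 libraries. This comparison was chosen after these values were seen. In equal-number lists it held for 5 of 9 (all but Ppp1r15a) against 15.9% of promoter regions. Ranked by fold over local background in place of −log10 p, only Xbp1 and Os9 of the 9 kept it, against 18.8%, and the Ddit3 promoter then stood at percentiles 48.9 and 34.0 in normoxic co-culture and 49.8 and 46.1 in hypoxic co-culture. Ranking by fold thus ended the separation for Hspa5, Atf4, Ddit3 and Ppp1r15a. Among libraries with a peak, the local background was also highest in hypoxic co-culture at all 6 promoters, Xbp1 and Os9 included.

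**Figure D3:**
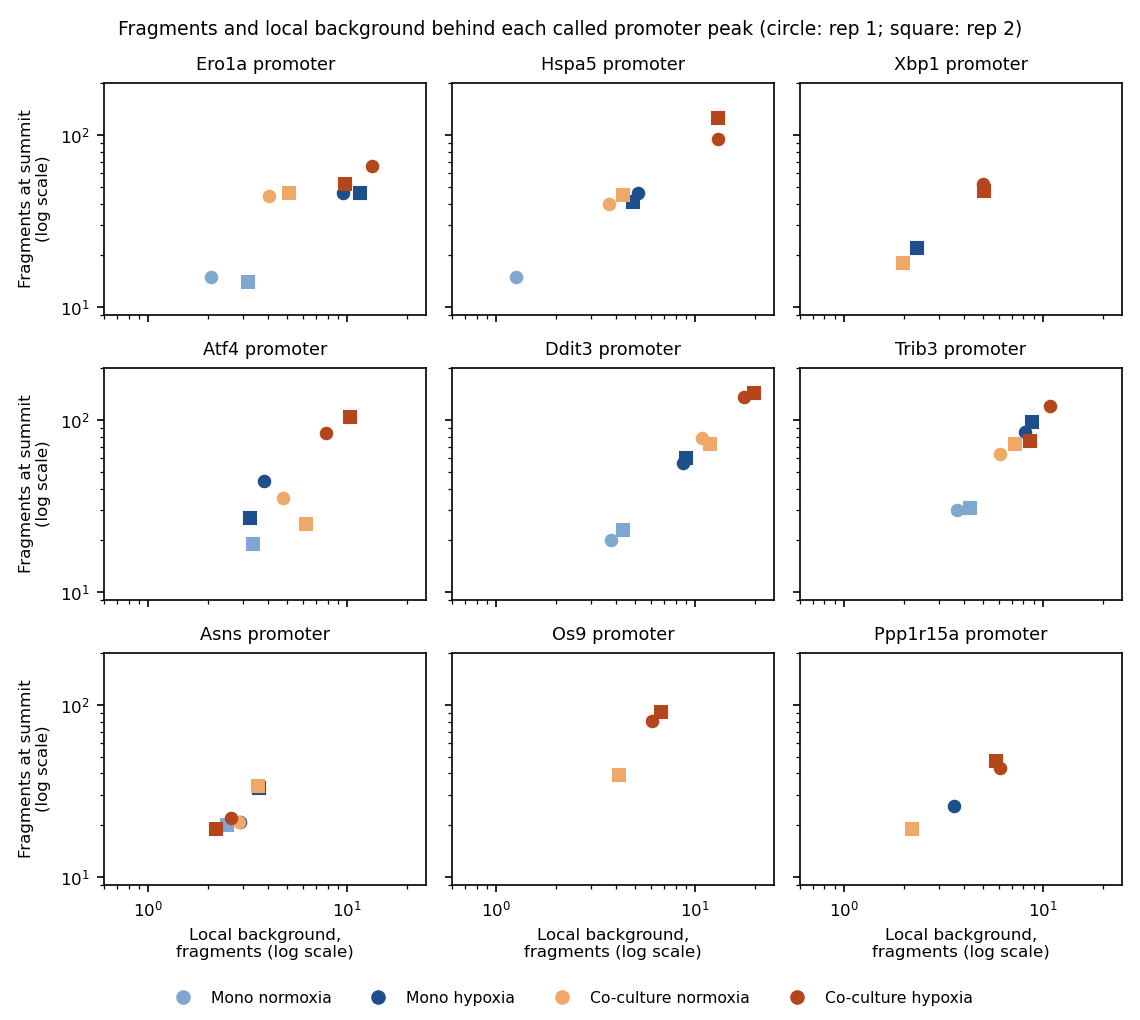
Fragments at the summit (vertical axis, log scale) against the local background in fragments (horizontal axis, log scale) for each called member promoter, 1 symbol per library, coloured by group, with circles for replicate 1 and squares for replicate 2. The hypoxic co-culture symbols of Ddit3 are highest on both axes, with 136 and 144 fragments over a background of 17.6 to 19.8, while those of Asns hold 22 and 19 fragments, the second the lowest of that promoter.

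Presence and absence of a peak separated few member regions by oxygen or culture. With 4 hypoxic against 4 normoxic libraries, 2 of the 29 regions were called in all hypoxic and no normoxic library (the Gpr137c region near Ero1a and Atf6 region 3), against 2.08% of all regions. The reverse was true of 0 of 29, against 0.0196%. With 4 co-culture against 4 monoculture libraries, 0 of 29 were gained, against 1.98%, and 0 lost, against 0.027%. A peak in both hypoxic co-culture libraries and no other was found at 2 of 29 (in Rabepk near Hspa5 and at Rps19bp1 near Atf4), against 1.98%. Within 1 culture or 1 oxygen level, 2 libraries against 2, hypoxia added 3 member regions in monoculture (against 17.7%) and 4 in co-culture (6.09%), and co-culture added 2 in normoxia (12.5%) and 3 in hypoxia (5.83%), the last including the Os9 promoter. None of the 29 was lost in these 4 contrasts, against 0.179%, 2.05%, 0.181% and 3.76%. These counts moved with the lists and with single libraries. In equal-number lists hypoxia added 0 regions in monoculture and 2 in co-culture, and co-culture added 1 in normoxia and 3 in hypoxia, against 3.59%, 2.64%, 2.37% and 3.58% of all regions. The Ero1a promoter was then lost with hypoxia in monoculture (against 2.49%), and Atf6 region 2 was lost with hypoxia in co-culture (2.78%) and with co-culture in hypoxia (3.4%). The gains in 4 libraries against 4 were 0 in equal-number lists for oxygen (0.52%) and for culture (0.493%). With 1 library left out at a time, the gains ranged from 3 to 7, 4 to 7, 2 to 6 and 3 to 6 in the order given above, while the share of all regions ranged from 18% to 31.2%, 6.1% to 21%, 12.7% to 21.9% and 5.84% to 17.2%. Up to 2 regions were lost with hypoxia in co-culture (2.05% to 7.01% of all regions) and up to 3 with co-culture in hypoxia (3.78% to 12.4%). A peak in all 8 libraries was found at 8 of the 29 regions, against 15.6%, and at 3 of the 9 promoters (Ero1a, Ddit3 and Trib3), against 35.3% of promoter regions. With 2 libraries against 2, an exact permutation test cannot give a two-sided p below 0.33, and these presence counts were not tested.

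Ranks were also compared within the same set of regions in every library. In each library the 6375 shared regions were ranked by −log10 p among themselves, and limma fitted the 4 groups with contrasts for oxygen (the mean of both hypoxic groups minus both normoxic ones), culture (co-culture minus monoculture) and their interaction, adjusted over the 6375 regions by Benjamini-Hochberg. In all, 727 regions passed 0.05 for oxygen (11.4%), of which 324 were higher in hypoxia (5.08%) and 403 lower (6.32%), and 736 passed for culture (11.5%), of which 344 were higher in co-culture (5.4%) and 392 lower (6.15%). Both counts were 0 with ranks by fold (1142 and 961 at an unadjusted p under 0.05, limma), and with 1 library left out they ranged from 0 to 1202 and from 0 to 1206. Of the 8 member regions, 0 were higher and 1 was lower with hypoxia, 2 were higher and 1 was lower with co-culture, and the median difference was −8.08 points for oxygen and 1.36 for culture, against −0.16 and 0.055 over all shared regions. Such ranks are relative: a region moves up only where others move down.

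The Ddit3 promoter stood at 15.3 ± 7.71 (SD, n = 2) in normoxic monoculture, 38.2 ± 0.898 in hypoxic monoculture, 56.8 ± 17.1 in normoxic co-culture and 81.7 ± 3.29 in hypoxic co-culture among shared regions. It was higher in co-culture by 42.5 ± 8.65 points (SE, limma adjusted p = 0.0256), and its oxygen difference of 23.9 ± 8.65 points did not pass (adjusted p = 0.0972). The Ero1a promoter, at 5.59 ± 6.18, 10.9 ± 6.41, 44.7 ± 11.3 and 26.7 ± 3.55, was higher in co-culture by 27.4 ± 6.21 points (adjusted p = 0.0300, limma), with an oxygen difference of −6.35 ± 6.21 (adjusted p = 0.517). Atf6 region 6 was lower in both contrasts, at 93.2 ± 2.42, 90.5 ± 0.444, 87.2 ± 1.74 and 62.4 ± 6.21. Its differences were −13.8 ± 2.83 points for oxygen (adjusted p = 0.0191, limma) and −17.1 ± 2.83 for culture (adjusted p = 0.0216, limma). The means of the other 3 groups lay between 87.2 and 93.2, and that of hypoxic co-culture was lowest.

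Whether these differences passed depended on single libraries, while their sizes moved less. With 1 library left out at a time, the culture calls of Ddit3 (limma adjusted p 0.0215 to 0.114) and Ero1a (0.0213 to 0.124) each held in 2 of 8 fits, those without a normoxic monoculture library. The Atf6 region 6 calls for oxygen (0.0149 to 0.0887) and culture (0.00853 to 0.114) each held in 4 of 8 and were lost without either hypoxic monoculture or either normoxic co-culture library. The differences ranged from 36.4 to 48.5 points for Ddit3, from 23.4 to 31.4 for Ero1a, and for Atf6 region 6 from −16.0 to −11.6 for oxygen and from −19.3 to −14.9 for culture. Ranked by fold, none of the 4 calls held: the culture differences were 10.1 points for Ddit3 (limma adjusted p = 0.342), 21.9 for Ero1a (0.170) and −16.1 for Atf6 region 6 (0.289), and the oxygen difference for Atf6 region 6 was −29.0 (0.118).

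The other shared member regions did not pass in either contrast. The Trib3 promoter differed by 17.2 ± 6.06 points for oxygen (limma adjusted p = 0.0890) and 3.68 ± 6.06 for culture (0.696). The Rbck1 promoter region near Trib3 differed by −9.82 ± 3.83 for oxygen (limma adjusted p = 0.116), and Atf6 regions 2 and 1 by −20.0 ± 8.76 (0.155) and −13.9 ± 5.57 (0.124). Their culture differences were −20.5 (0.138) and −17.2 ± 5.57 (0.0682). Atf6 region 9 gave 4.08 for oxygen (0.732) and −0.955 for culture (0.937). No interaction passed among the 6375 regions by limma (0 called, 726 at an unadjusted p under 0.05, smallest adjusted p 0.0628). The largest interaction among the members was −59.5 ± 17.5 points for Atf6 region 2 (limma adjusted p = 0.298), and that of region 6 was −22.2 ± 5.67 (0.261). A difference between the culture effects at the 2 oxygen levels was therefore not shown for these regions.

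**Figure D4:**
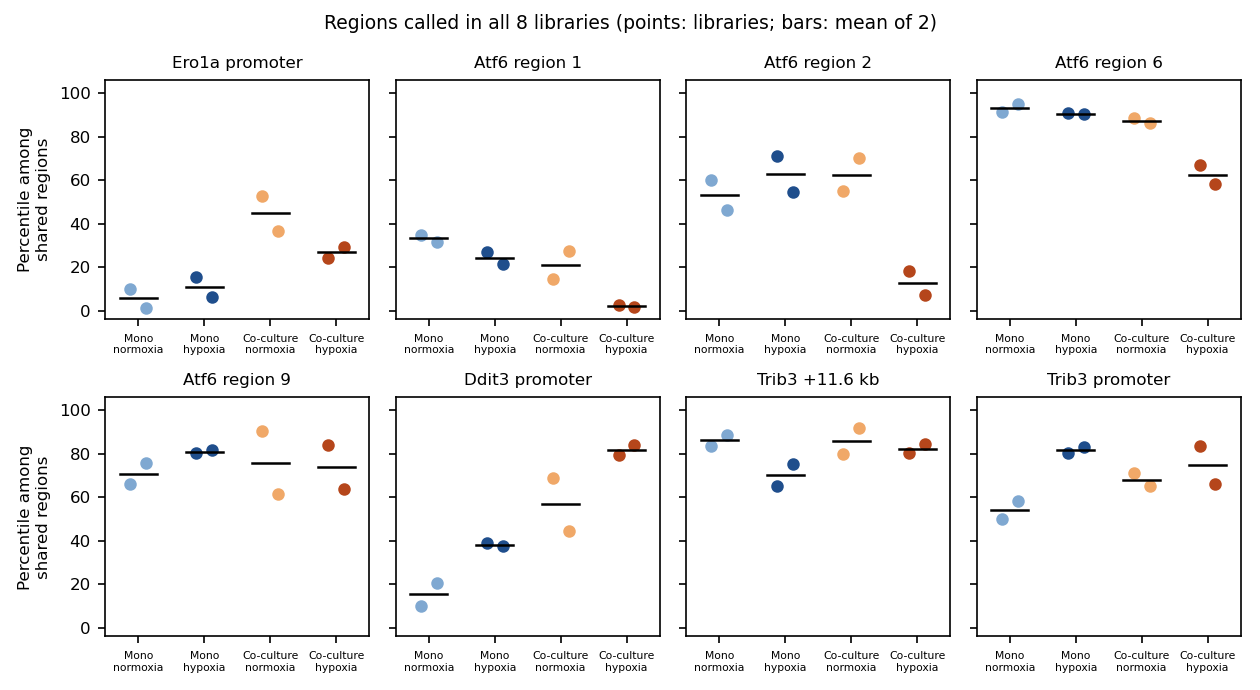
Percentile among the 6375 regions called in all 8 libraries (vertical axis) for the 8 shared member regions by group (horizontal axis), 1 point per library and a bar at the mean of 2. The Ddit3 promoter runs from a mean of 15.3 to 81.7 and the Ero1a promoter is higher in all 4 co-culture libraries, while Atf6 region 6 is lowest in hypoxic co-culture, at a mean of 62.4.

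Regions missing from 1 library were taken in by ranking the 10250 regions called in at least 7, with a missing peak given the lowest rank, a set added after the data were seen. The Atf4 promoter differed by 39.4 ± 12.8 points for oxygen (limma adjusted p = 0.0935) and 19.4 for culture (0.341). The Hspa5 promoter differed by 21.0 for oxygen (limma adjusted p = 0.220) and 32.9 ± 10.3 for culture (0.0845). Asns gave −11.2 (0.556) and −7.33 (0.698). None of the 3 passed in either contrast. In this wider set the culture differences of Ddit3 (35.9, adjusted p = 0.0584) and Ero1a (25.3, 0.0746) missed the threshold, while Atf6 region 6 passed for oxygen (0.0310) and culture (0.0351).

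The rest of the pathway was followed in 54 further genes, with 124 regions. They had a peak in 36 to 52 genes per library, 34 had one in all 8 libraries, and Derl3 and Vldlr had none. Of the 47 promoters found in RefSeq's table, 44 were called in at least 1 library, 23 in all 8, and 13 were highest in both hypoxic co-culture libraries, beside 35.3% and 28.9% of all promoter regions for the last 2 counts. Every background region had a peak in at least 1 library, so the 44 are the matching base. Of the 44, the share highest in hypoxic co-culture was near the background, and the share called in all 8 was above it. Neither share was tested. Among their 35 shared regions limma called 3 higher and 0 lower for oxygen, and 5 higher and 0 lower for culture, beside 11.4% and 11.5% of all shared regions called in either direction. Their median differences were 0.541 and 12.9 points.

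With hypoxia, the region in the body of Slc7a11, the cystine transporter, was higher by 39.1 ± 8.79 points (limma adjusted p = 0.0247). The regions near Hyou1, a chaperone of the endoplasmic reticulum, and Pdia3, a disulfide isomerase, were higher by 20.9 ± 5.31 (0.0368) and 18.3 ± 4.99 (0.0436), but lie at the promoters of Slc37a4 and Serf2. With co-culture, the promoter of Mthfd2, a mitochondrial folate enzyme and known ATF4 target, was higher by 32.6 ± 8.42 points (limma adjusted p = 0.0376). So were a region overlapping the body of Manf, a secreted survival factor of the endoplasmic reticulum (19.9 ± 5.28, 0.0400), and the promoter region shared by Pdia3 and Catsper2 (29.5 ± 7.35, 0.0354). The promoter region shared by Derl2 and Mis12 (21.6 ± 4.31, 0.0256) was also higher, as was a region near Eif2ak1 at the promoters of Aimp2 and Pms2 (26.1 ± 7.30, 0.0465). None of these 8 calls held with ranks by fold. None of the oxygen calls held without the first hypoxic monoculture or the second normoxic co-culture library, and none of the culture calls without either hypoxic monoculture library or the second normoxic co-culture library, since no region passed there. By presence, 1 of the 124 regions was gained with hypoxia and 1 with co-culture in 4 libraries against 4, beside 2.08% and 1.98% of all regions, and neither was gained in equal-number lists. In those lists 0 of the 124 were gained with hypoxia (against 0.52% of all regions) and 1, near Ddit4, with co-culture (0.493%). A region near Edem1 (chr6:108862454-108863015) was called in all 4 hypoxic and no normoxic library, at percentiles 58.7, 66.9, 53.0 and 12.6. A region near Shmt2, the mitochondrial serine enzyme (chr10:127512095-127513287), was called in each of the 4 co-culture libraries and in none without glioma cells, at 48.1, 40.8, 32.9 and 40.6.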

How the data were processed

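The 8 deposited peak lists, 1 per library, are in narrowPeak form. Per the submitters' processing notes, the tools named are Trimmomatic 0.36, HISAT2 2.1.0, Picard, SAMtools, deepTools and MACS2 2.1.1.2, with genome mm10; their roles, filters and settings are not given in the sources used here. Each deposited line holds a score, a fold ratio over local background, a −log10 p-value and a −log10 q-value; the lowest −log10 q in a list was 2.0004 to 2.08. These values are the authors' own, 1 per peak, and serve here to rank and filter peaks within a list and to solve the fragment numbers.

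Peaks were merged across libraries where they shared at least 1 bp. A region took its best peak's percentile by −log10 p within each list. A gene's regions lay within 10 kb of its RefSeq body, and promoter sequences are RefSeq's (GRCm38.p6). Fragment numbers at the summit were solved from fold = (n + 1)/(b + 1) and the Poisson p, where n is the fragments and b the local background, for 99.9925% to 100% of peaks (tolerance 0.001 in −log10 p, up to 250). Total depth is unknown.

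Differences in percentile among shared regions were tested with limma 3.58.1 (trend, 4 group means, R 4.3.3) after a check on simulated data. Python 3.11.15 did the rest. Groups came from sample titles. Named were all 10 members with every region, and of the 54 other pathway genes those with a region separating 4 libraries from 4 by presence or passing 0.05 adjusted, at most 6 per set. Members, lists and tests were chosen with earlier results of these data known. Alternatives were equal-number lists (9910 peaks), −log10 q of at least 5, distances of 2 and 20 kb, ranking by fold, normal scores, no trend, the replicate block and leaving out each library.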

Additional observations from a re-analysis of the deposited data

How the results depend on the processing

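Counts of member regions were small and moved with the lists. In equal-number lists 5 regions were called in all 8 libraries (8 as deposited) and 0 were gained by hypoxia in 4 libraries against 4 (2 as deposited), and at −log10 q of at least 5 the gained count was 1. Within 20 kb of gene bodies, 1 region was gained by co-culture (0 within 10 kb). With each library left out in turn, these 3 counts ranged from 8 to 10, from 2 to 2 and from 0 to 1, and promoters highest in hypoxic co-culture from 6 to 7, while the share of all promoter regions ranged from 28.9% to 42.3%, the highest going with the 7. Ranked by fold, 2 promoters were highest there (18.8% of promoter regions). Among shared regions, limma's count for oxygen (727) was 0 with ranks by fold (1142 at an unadjusted p under 0.05) and 1102 with normal scores, and ranged from 0 to 1202 with 1 library left out. It was 0 without the first hypoxic monoculture or the second normoxic co-culture library. The count for culture (736) was 0 with ranks by fold (961 at an unadjusted p under 0.05), 1207 with normal scores, 463 with equal-number lists and 423 with regions in at least 7 libraries. It ranged from 0 to 1206 with 1 library left out, and was 0 without either hypoxic monoculture library or the second normoxic co-culture library. The interaction count (0) was 1 with normal scores, 2 with equal-number lists and 0 to 95 with 1 library left out, 95 being without the first normoxic monoculture library. The cause was not tested. The oxygen call of Atf6 region 6 was lost without limma's trend (adjusted p = 0.0693). With normal scores the Ddit3 oxygen difference (adjusted p = 0.0413) and the culture difference of Atf6 region 1 (0.0461) passed. A group left with 1 library was assumed to vary like the others. Under these alternatives none of the called differences of the member regions changed sign; those of the other pathway regions were not recomputed. With the replicate number as a block, limma called 736 for oxygen, 756 for culture and 0 for the interaction, and the member calls were kept. Deviations of same-numbered libraries correlated from −0.030 to 0.196 over 6 pairs of groups, so the numbers are not taken to pair the libraries. Total depth is unknown, and the lists of normoxic monoculture were the shortest.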
